A study of Mus musculus with 8 samples.

Results

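Integrins, cadherins and a set of related adhesion receptors were followed across mouse embryonic stem cells (ESC) and hematopoietic stem and progenitor cells (HSC) with and without the transcription factor Zfx. The members were all genes whose platform symbol is an integrin alpha chain, an integrin beta chain from Itgb1 to Itgb8 or a cadherin named Cdh with a number, together with Cd44, Icam1, Icam2, Vcam1, Selp, Sele, Selplg, Epcam and F11r. The platelet integrin chains Itga2b and Itgb3 were left out. Each gene was read from 1 probe set, the one with the highest mean over the arrays. This gave 52 members of 18193 genes: 21 cadherins, 15 integrin alpha chains, 7 integrin beta chains and 9 other receptors. The members had 108 probe sets in all, and 23 members had only 1.

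The series holds 8 Affymetrix expression arrays in 4 groups of 2. The ESC groups were Zfx-flox, control clones with the conditional allele intact, and Zfx-null, clones with the allele deleted; both grew on gelatin with serum replacement and LIF, without feeder cells. The HSC groups were lineage-negative, Sca1-positive, c-Kit-positive bone marrow cells from Zfx flox/y males: Zfx-cko carried the Mx1-Cre transgene, whose promoter answers to interferon, and Zfx-flox came from Cre-negative littermates. Both HSC groups were collected 4 days after the last injection of pI·C, an inducer of interferon, with marrow pooled from 4 to 6 mice. The comparison of the deleted with the floxed group in each cell type bears on what Zfx does in the self-renewal of these stem cells. Samples were hybridized in duplicate, so both arrays of a group may hold the same RNA, and every p-value here rests on array-to-array spread that may be technical. ESC RNA had 1 round of linear amplification and HSC RNA 2 rounds, so a level set across the cell types cannot be told apart from the amplification. An effect of Zfx in ESC cannot be told apart from a difference between the clones, nor one in HSC from an effect of Cre, which the controls lack.

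Integrins are receptors made of an alpha and a beta chain that link the extracellular matrix or counter-receptors on other cells to the actin cytoskeleton through talin, vinculin, Ilk and related proteins. Cadherins bind the same kind of cadherin on a neighbouring cell and are held to actin by catenins; E-cadherin (Cdh1) joins the compact colonies of embryonic stem cells, and a switch to N-cadherin (Cdh2) accompanies loss of epithelial character. In bone marrow, integrins such as the alpha-4 and alpha-L chains, selectin ligands and Cd44 take part in the homing and retention of hematopoietic cells. All values below are the deposited probe set intensities, on a linear scale. A change is the difference of log2(value + 14.2) between group means, with its standard error (SE) from limma, and a gene rose or fell where limma's Benjamini-Hochberg adjusted p was under 0.05. Signals of different probe sets are not on a common scale, so levels are compared only within a gene, apart from the sums over marker lists.

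Array medians ran from 38.4 to 66.5, and arrays of a group correlated at 0.98 to 0.987 over log2 values. The probe set 1422249_s_at, which the annotation gives to Zfx and the pseudogene Zfa-ps, read 285 and 298 in the ESC Zfx-flox arrays against 1.32 and 0.878 in the Zfx-null arrays. In HSC it read 7.22 and 0.971 in Zfx-flox against 1.34 and 0.305 in Zfx-cko, near the floor in both groups, so it does not check the HSC labels. None of the 6 other probe sets of Zfx read lower in both ESC Zfx-null arrays than in both controls. In 5 of the 6, both Zfx-null arrays read higher: 1425972_a_at went from 262 and 318 to 477 and 547, and 1428046_a_at from 179.8 and 161 to 624 and 512, while 1439404_x_at overlapped. In HSC, the Zfx-cko arrays of 1425972_a_at also read above the controls, with 696 and 752 for the controls against 1192 and 1209 for Zfx-cko. The dim 1449512_a_at went from 4.32 and 9.95 to 24.9 and 18.9. Both Zfx-cko arrays of 1419565_a_at read lower, at 97.4 and 84.7 against 109 and 162 in the controls. The other Zfx probe sets overlapped in HSC. The sources used here do not say which probes lie in the deleted stretch.

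Defining markers were set against the labels. Of 11 stem and progenitor markers, 0 were under the added constant in either HSC group, but 0 of 8 erythroid markers were under it in HSC Zfx-flox either, where the erythroid factor Klf1 read 1924 ± 71.2 (SD, n = 2) although the cells were sorted as lineage-negative. Of 10 ESC markers, none was under the added constant of 14.2 in ESC Zfx-flox and 6 were under it in HSC Zfx-flox. Summed over the list, the ESC markers ranged from 33300 to 34800 in ESC Zfx-flox and from 20900 to 21900 in Zfx-null, and 7 of the 10 tested fell. Each sum here adds signals that are not on a common scale, so the brightest probe sets weigh most in it. The 12 fibroblast and stroma markers summed to 19600 to 20500 in ESC Zfx-flox and 32800 to 35300 in Zfx-null, with 7 of 12 rising. The 11 stem and progenitor markers on the array summed to 11100 to 11700 in HSC Zfx-flox and 27100 to 27200 in Zfx-cko, and 10 of the 11 tested rose, while the 8 erythroid markers went from 24800 to 25300 down to 7960 to 8120, and all 5 tested fell. Megakaryocyte markers summed to 1540 to 1700 in HSC Zfx-flox and 4740 to 4750 in Zfx-cko (5 of 10 tested rose). Mast cell markers summed to 2860 to 2960 against 5320 to 5610 (3 of 8 rose), and granulocyte and monocyte markers to 15700 to 15800 against 20100 to 20800 (2 of 9 rose). Lymphoid markers summed to 298 to 317 against 632 to 706 (3 of 4 tested rose), and endothelial markers to 742 to 837 against 989 to 1170 (4 rose and 1 fell of 8). In ESC, 1 of 9 primitive endoderm markers and 1 of 8 trophectoderm markers rose. Of all genes tested, 15.7% rose and 14.9% fell in ESC, and 22.6% rose and 19.8% fell in HSC. The granulocyte and monocyte count in HSC (22.2%) was near that share. The primitive endoderm (11.1%) and trophectoderm (12.5%) counts were below the ESC share, so these counts are no result about those markers. The shifts of the other lists run alongside the results below, and their part in them was not tested. In bulk samples, fewer cells of a type and less RNA per cell cannot be told apart.

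The promoters of 4 members that the results turn on are shown first: Itgb1 and Icam1, which moved in opposite directions in the cell types, Itgav, which rose in both, and F11r, which rose in HSC. Each window holds 250 bases before to 50 bases after the gene's start, from RefSeq on GRCm38.p6. All 4 are given 5′ to 3′ on the plus strand: Itgb1 at chr8:128685404-128685703, Icam1 at chr9:21015690-21015989, Itgav at chr2:83724147-83724446 and F11r at chr1:171437311-171437610. Capitals mark, on either strand, AGGCCT (the core recognised by Zfx), CAGGTG (the E-box bound by Snai and Zeb repressors), GGGCGG (the GC box) and GGAAATTCC (a kappa B site), and no marked matches overlap.
Itgb1: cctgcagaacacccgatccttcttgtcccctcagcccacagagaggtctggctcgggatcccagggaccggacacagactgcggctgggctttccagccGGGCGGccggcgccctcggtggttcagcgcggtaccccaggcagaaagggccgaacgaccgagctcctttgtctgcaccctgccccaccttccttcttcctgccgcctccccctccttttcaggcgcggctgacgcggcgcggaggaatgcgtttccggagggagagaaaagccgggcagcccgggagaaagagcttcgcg
Icam1: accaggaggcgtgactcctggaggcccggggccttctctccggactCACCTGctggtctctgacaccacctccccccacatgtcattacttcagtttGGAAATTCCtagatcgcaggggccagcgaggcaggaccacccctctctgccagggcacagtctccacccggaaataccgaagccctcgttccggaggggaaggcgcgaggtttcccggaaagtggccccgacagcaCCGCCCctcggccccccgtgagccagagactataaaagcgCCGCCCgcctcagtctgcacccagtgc
Itgav: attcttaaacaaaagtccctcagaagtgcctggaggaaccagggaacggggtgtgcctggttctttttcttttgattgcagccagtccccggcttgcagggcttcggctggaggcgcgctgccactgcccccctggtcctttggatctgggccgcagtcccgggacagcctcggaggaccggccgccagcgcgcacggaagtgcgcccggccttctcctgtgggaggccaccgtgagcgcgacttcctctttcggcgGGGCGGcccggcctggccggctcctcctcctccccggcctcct
F11r: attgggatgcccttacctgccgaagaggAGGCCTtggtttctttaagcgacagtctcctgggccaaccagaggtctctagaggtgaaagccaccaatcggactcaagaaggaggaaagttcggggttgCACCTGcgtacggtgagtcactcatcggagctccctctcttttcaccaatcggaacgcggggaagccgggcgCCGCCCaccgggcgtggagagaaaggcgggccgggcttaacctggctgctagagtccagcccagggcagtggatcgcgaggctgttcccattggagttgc
The AGGCCT core lay in the F11r window, starting 222 bases before the start, and in those of Itga10 and Itgb5 among the 33 members with a window in the table. It is in 3 of the 37 windows of these members and in 10.3% of all 32851 promoter windows. CAGGTG was in 12 of the 37 windows, those of 10 members including Icam1, at base -204, and F11r, at base -122, against 20.2% of all windows. GGGCGG was in 17 of the 37 windows, those of 16 members, against 35.7% of all windows, and in each of the 4 shown. GGAAATTCC was in the Icam1 window, at base -153, and in 0.317% of all windows. A match is a description of the letters and shows no binding.

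The starting levels differed between the cell types before any deletion. Of the 40 members bright enough to be tested in at least 1 cell type, 15 were at least 4-fold higher in ESC Zfx-flox than in HSC Zfx-flox with no overlap of arrays, which 11.9% of the 14034 such genes did. In the other direction 6 of the 40 members were at least 4-fold higher in HSC Zfx-flox, against 6.46% of those genes. No test was made, since the amplification differed. The members higher in ESC were the cadherins Cdh1, Cdh2, Cdh3, Cdh10 and Cdh11, the other receptors Epcam, F11r and Icam1, and the integrin chains Itga3, Itga7, Itgav, Itgb1, Itgb4, Itgb5 and Itgb8. Those higher in HSC were Cd44, Icam2, Selplg, Itga4, Itgal and Itgb2. Of these, Cdh3, Cdh10, Cdh11, Itga7, Itgb4 and Itgb8 were bright enough to be tested only in ESC. Icam2, Selplg and Itgb2 were bright enough only in HSC. These entered the count through the cell type in which they are high, so the counts are a description and no support for a difference. Cdh1 stood at 4342 and 4829 in ESC Zfx-flox, against 36.8 and 26.2 in the HSC controls. Icam2, a ligand of the leukocyte integrin Itgal with Itgb2, was near the floor in the ESC controls, at 2.68 and 6.39, against 608 and 670.2 in the HSC controls. Of the members, 2, Cdh8 and Cdh18, were under 14.2 in every group mean. A further 10 were too dim to be tested in either cell type: Cdh5, Cdh7, Cdh16, Cdh17, Cdh19, Cdh20, Cdh26, Itgam, Itgb6 and Sele. Itgam, a myeloid integrin chain, was at 1.30 ± 0.585 (SD, n = 2) in HSC Zfx-flox.

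In ESC, Zfx-null cells had more RNA of the integrin chains Itgb1, Itgb8, Itgav, Itga1, Itga4 and Itga7, of the cadherins Cdh2, Cdh6, Cdh10, Cdh11 and Cdh13 and of the hyaluronan receptor Cd44, and less of E-cadherin (Cdh1), Icam1 and Itgb4. Of the 34 members bright enough to be tested, 15 passed the test (44.1%), where 30.6% of all 12676 genes tested did. The direction was 12 higher and 3 lower, against 15.7% of all genes higher and 14.9% lower. By family, 5 of 12 tested cadherins rose and 1 fell, 4 of 12 integrin alpha chains rose, 2 of 5 beta chains rose and 1 fell, and 1 of 5 other receptors rose and 1 fell. The median change of the tested members was 0.05, beside -0.03 for all genes. Without Zfx-flox replicate 2, 1 member was called lower.

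**Figure D1:**
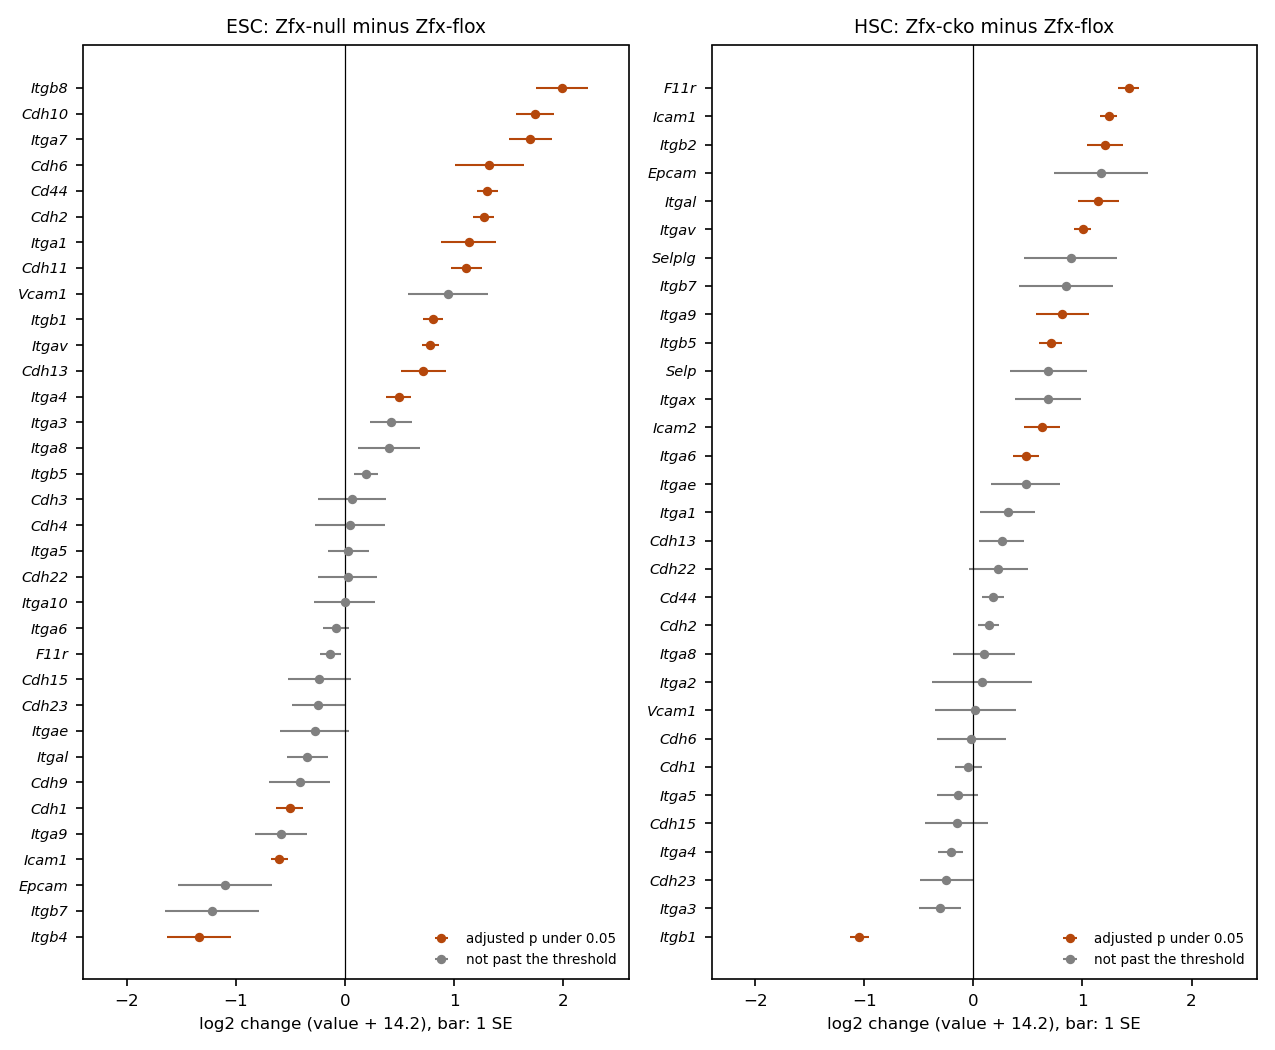
Change of each tested member on the log2(value + 14.2) scale, with 1 SE as bar, in ESC (left, Zfx-null minus Zfx-flox) and HSC (right, Zfx-cko minus Zfx-flox). Orange points passed the threshold of 0.05 on the adjusted p: 12 higher and 3 lower in ESC, 9 higher and 1 lower in HSC.

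Among the integrin beta chains, Itgb8, which pairs with the alpha-v chain to bind latent TGF-beta, read 104 and 113 in ESC Zfx-flox against 446 and 503 in Zfx-null. All Zfx-null arrays lay above all Zfx-flox arrays, and the rise of 1.99 ± 0.24 (SE), or 3.97-fold, had an adjusted p of 0.000603. Itgb1, the beta chain shared by most matrix-binding integrins, read 3261 and 2933 in Zfx-flox against 5332 and 5516 in Zfx-null. Its rise was 0.81 ± 0.09 (1.75-fold, adjusted p 0.000387), and a second Itgb1 probe set, 1452545_a_at, rose by 0.73 ± 0.10. Itgb4, the beta chain of hemidesmosomes, went the other way, from 68.8 and 87.3 to 14.1 and 32.2, so that both Zfx-null arrays were below both controls. It fell by 1.34 ± 0.29 (adjusted p 0.0097), a dim signal whose call did not hold without Zfx-flox replicate 2 (-1.19, adjusted p 0.0509), without Zfx-null replicate 1 (-0.98, 0.0567) or with an added constant of 1 (-1.81, 0.0713).

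Of the alpha chains, Itga7, a laminin receptor chain, read 212 and 185 in Zfx-flox against 712 and 644 in Zfx-null, a rise of 1.70 ± 0.20 (3.25-fold, adjusted p 0.000555). Its HSC signal was at the floor, at 1.65 to 5.24. Itgav, which binds RGD-containing ligands such as vitronectin and fibronectin, read 3085 and 3502 in Zfx-flox against 5634 and 5712 in Zfx-null. The groups did not overlap, and the rise was 0.78 ± 0.08 (1.72-fold, adjusted p 0.000267), while its other probe sets varied: 1421198_at gave 0.92 ± 0.32 (adjusted p 0.0722 over probe sets) and the mean over all its probe sets 0.24 (adjusted p 0.419). Itga1, a collagen receptor chain, read 22.9 and 31.1 against 73.3 and 78.7, and rose by 1.14 ± 0.25 (adjusted p 0.0104). Itga4, the chain that binds Vcam1 and fibronectin, read 37.1 and 45.9 against 69.7 and 58.4 and rose by 0.49 ± 0.12 (adjusted p 0.0135). Both of these dim chains lost their call without single arrays: Itga1 without Zfx-flox replicate 1 (0.99, adjusted p 0.0594) or Zfx-null replicate 2 (1.09, 0.0536), and Itga4 without Zfx-flox replicate 1 (0.38, 0.0652), without Zfx-null replicate 1 (0.39, 0.0676) or in a fit of the ESC arrays alone (0.216).

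The other integrin chains of ESC did not pass. Itga6, a laminin receptor chain expressed in many stem cells, read 3689 and 3303 in Zfx-flox against 3797 and 2873 in Zfx-null, overlapping, with a change of -0.08 ± 0.12 (adjusted p 0.665). Itga3, another laminin receptor chain, read 1419 and 1927 against 1926 and 2574 and changed by 0.43 ± 0.19 (adjusted p 0.132). The beta chain Itgb5 read 812 and 844 against 866 and 1037, with a change of 0.19 ± 0.11 (adjusted p 0.225). For Itga5, the fibronectin receptor chain, the probe set used changed by 0.03 ± 0.19 (adjusted p 0.919), and 1457561_at by -0.14. The probe set brightest in ESC, 1423267_s_at, changed by 0.75 ± 0.41 without passing (adjusted p 0.233 over probe sets). However, 1423268_at rose by 0.81 ± 0.20 (adjusted p 0.0197 over probe sets), so the Itga5 probe sets disagreed. Itgb7 read 121 and 138 in Zfx-flox but 89.6 and 22.3 in Zfx-null, and its change of -1.22 ± 0.43 (adjusted p 0.0661) passed only without Zfx-null replicate 1 (-1.97, 0.00458). Without Zfx-null replicate 2, Itgal (-0.61, adjusted p 0.0369) and Itga9 (-0.88, 0.0461) passed, where with all arrays their changes were -0.34 ± 0.19 (0.215) and -0.59 ± 0.24 (0.105). The dim chains Itga8, at 0.40 ± 0.28, Itga10, at -0.00 ± 0.28, and Itgae, at -0.28 ± 0.32, did not pass.

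**Figure D2:**
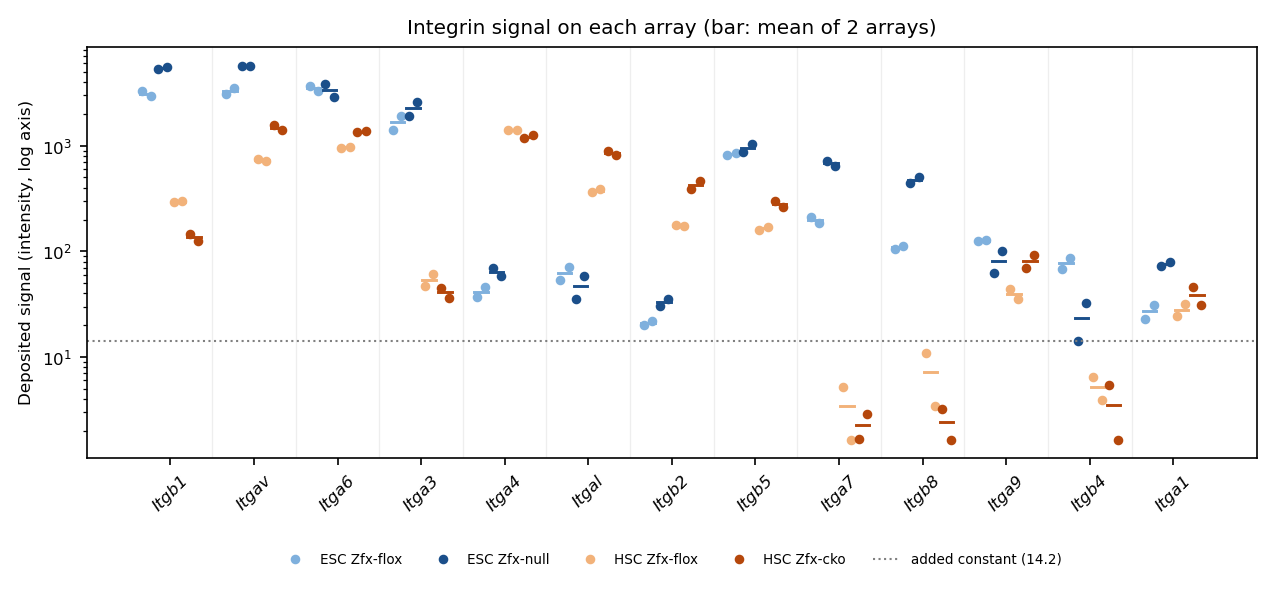
Deposited signal of 13 integrin chains on each array, on a log axis; points are arrays, bars the mean of 2 arrays, and the dotted line the added constant of 14.2. Itgb1 rose in ESC (3261 and 2933 against 5332 and 5516) and fell in HSC (291 and 299 against 147 and 125), while Itgav rose in both.

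Cdh1, E-cadherin, read 4342 and 4829 in ESC Zfx-flox against 3166 and 3277 in Zfx-null. The groups did not overlap, and it fell by 0.51 ± 0.12 (1.42-fold, adjusted p 0.0148). The call was lost without Zfx-flox replicate 2 (-0.43, adjusted p 0.0984), Zfx-null replicate 1 (-0.48, 0.0783) or Zfx-null replicate 2 (-0.53, 0.0579). Cdh2, N-cadherin, rose: it read 1374 and 1321 in Zfx-flox against 3108 and 3457 in Zfx-null. The rise was 1.27 ± 0.10 (2.42-fold, adjusted p 7.47e-05), and its other probe set rose by 1.67 ± 0.24. Cdh3, P-cadherin, read 316 and 287 against 328 and 303, a change of 0.06 ± 0.31 (adjusted p 0.904).

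The type II cadherins Cdh10, Cdh11 and Cdh6, which are best known from neural and mesenchymal cells, also rose. Cdh10 read 259.6 and 266 in Zfx-flox against 915 and 912 in Zfx-null, a rise of 1.74 ± 0.18 (3.35-fold, adjusted p 0.000267), while its other tested probe set rose by 0.86 ± 0.23 and the mean over its probe sets by 0.77 (adjusted p 0.04). Cdh11 read 644 and 573 against 1389.8 and 1274 and rose by 1.11 ± 0.14 (adjusted p 0.0008), while its other probe set, at 0.52, did not pass. Cdh6 read 70.8 and 95.1 against 219 and 236 and rose by 1.32 ± 0.32 (adjusted p 0.0145), while its other probe set, at 0.66, did not pass. In each of the 3 the Zfx-null arrays lay above both controls. Cdh13, the cadherin anchored by a lipid without a cytoplasmic tail, read 139 and 131 against 248 and 216 and rose by 0.72 ± 0.21 (adjusted p 0.0301). For Cdh6 the call was lost without Zfx-flox replicate 1 (1.14, adjusted p 0.0863), Zfx-null replicate 1 (1.37, 0.0601) or Zfx-null replicate 2 (1.28, 0.0745). Cdh13 lost its call without any of the 4 ESC arrays: Zfx-flox replicate 1 (0.76, adjusted p 0.0907) or 2 (0.68, 0.116), Zfx-null replicate 1 (0.63, 0.148) or 2 (0.81, 0.071). The remaining tested cadherins Cdh4, Cdh9, Cdh15, Cdh22 and Cdh23 had changes from -0.41 to 0.05 and did not pass.

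**Figure D3:**
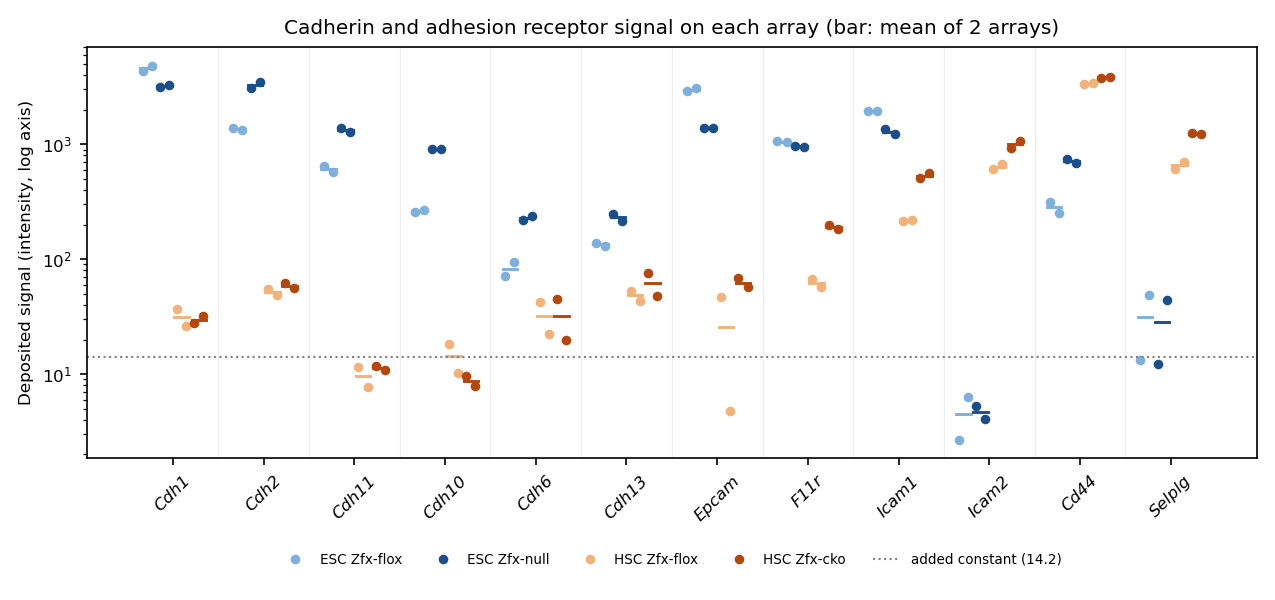
Deposited signal of 6 cadherins and 6 other adhesion receptors on each array, on a log axis; points are arrays, bars the mean of 2 arrays, and the dotted line the added constant of 14.2. In ESC, Cdh1 was lower and Cdh2, Cdh10 and Cdh11 higher in Zfx-null, and in HSC Icam1, F11r and Icam2 were higher in Zfx-cko.

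Of the other receptors, Cd44, the receptor for hyaluronan, read 315 and 254 in ESC Zfx-flox against 752 and 688 in Zfx-null. The rise of 1.30 ± 0.10 (2.47-fold) had an adjusted p of 7.21e-05, and the other tested probe sets of Cd44 rose too. Icam1, a ligand of leukocyte integrins that mouse ESC also express, read 1954 and 1957 against 1346 and 1225 and fell by 0.60 ± 0.08 (adjusted p 0.000864). Epcam, the epithelial adhesion molecule expressed by undifferentiated ESC, read 2904 and 3079 in Zfx-flox against 1386 and 1390.3 in Zfx-null. Those groups were far apart, but the change of -1.10 ± 0.43 missed the threshold (adjusted p 0.0889) in the fit that shares its spread with the HSC arrays, where Epcam read 47 and 4.75 in Zfx-flox. Fitted on the ESC arrays alone its adjusted p was 0.000772, and without HSC Zfx-flox replicate 1 or 2 it was 0.00059 or 0.000522; its other probe set changed by -0.21. F11r, the junctional adhesion molecule A, read 1061 and 1040.5 against 975 and 941, a change of -0.13 ± 0.10 (adjusted p 0.355). Vcam1 read 79.4 and 26.9 against 107 and 104 and did not pass (0.94 ± 0.37, adjusted p 0.0886). Its change was 1.54 without Zfx-flox replicate 1 but 0.35 without Zfx-flox replicate 2. The Vcam1 probe set 1448162_at rose by 1.28 ± 0.32 (adjusted p 0.0214 over probe sets).

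In HSC, Zfx-cko cells had more RNA of the integrin chains Itgal, Itgb2, Itgav, Itgb5, Itga6 and Itga9, of Icam1, Icam2 and F11r, and less of Itgb1. Of the 31 members tested, 10 passed (32.3%), below the 42.4% of all 12533 genes tested, so the count by itself is no result about these genes. The 10 were 9 higher and 1 lower, where 22.6% of all genes tested were higher and 19.8% lower. Of the 7 tested cadherins, all dim in HSC, 0 passed by limma, and 0 had an unadjusted p under 0.05, in this fit. Among the rest, 4 of 12 alpha chains rose, 2 of 4 beta chains rose and 1 fell, and 3 of 8 other receptors rose. The median change of the tested members was 0.32, beside 0.03 for all genes. A fit of the HSC arrays alone called 16 members (45.6% of all genes tested were called), adding Cd44, Itgax, Itgb7, Selp and Selplg as higher and Itga4 as lower. With the mean over each gene's probe sets, 6 were called.

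The leukocyte integrin formed by Itgal and Itgb2 (LFA-1) had both chains higher. Itgb2 read 176 and 175 in HSC Zfx-flox against 388 and 461 in Zfx-cko, a rise of 1.21 ± 0.16 (2.31-fold, adjusted p 0.000511). Itgal read 367 and 385 against 889 and 812, again with no overlap, and rose by 1.15 ± 0.19 (2.21-fold, adjusted p 0.00144). A dimmer Itgal probe set, which was not tested, went from a mean of 38.4 to 6.56, so that the mean over its probe sets was -0.10 (adjusted p 0.737). Itgax, another partner of Itgb2, read 39.4 and 42.1 against 76.2 and 72 without passing (0.68 ± 0.30, adjusted p 0.102), and passed in a fit of the HSC arrays alone (0.0395).

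The ligands of LFA-1 on this list were higher as well. Icam1 read 215 and 219 in Zfx-flox against 506 and 562 in Zfx-cko, a rise of 1.24 ± 0.08 (2.37-fold, adjusted p 9.05e-06). Icam2 read 608 and 670.2 against 927 and 1072 and rose by 0.63 ± 0.17 (1.55-fold, adjusted p 0.0149). The Icam2 call did not hold without any of the HSC arrays: Zfx-flox replicate 1 (0.56, adjusted p 0.112) or 2 (0.70, 0.0612), Zfx-cko replicate 1 (0.73, 0.0506) or 2 (0.53, 0.138). It was also lost with added constants of 3.64 (0.0827) or 1 (0.173) and with median centring within cell types (0.0518).

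Itgb1 was the member that fell. It read 291 and 299 in HSC Zfx-flox against 147 and 125 in Zfx-cko, and fell by 1.04 ± 0.09 (2.06-fold, adjusted p 4.13e-05), with no overlap between the groups. The probe set 1452545_a_at also fell, by 0.48 ± 0.10 (adjusted p 0.0065 over probe sets), and the mean over its probe sets by 0.49 (adjusted p 0.0208). Its alpha partner Itga4, which with Itgb1 forms VLA-4, the Vcam1 receptor of marrow progenitors, read 1399 and 1406 in Zfx-flox against 1169 and 1259 in Zfx-cko, a change of -0.21 ± 0.12 (adjusted p 0.193). Another bright Itga4 probe set, 1456498_at, changed by -0.52 ± 0.18 (adjusted p 0.0509 over probe sets). The dimmer 1421194_at and 1427615_at changed by -0.21 and 0.06. Itga6 read 946 and 977 against 1335 and 1369 and rose by 0.49 ± 0.12 (1.40-fold, adjusted p 0.0108). Its other probe set changed by -0.04, and the call was lost without Zfx-flox replicate 1 (0.46, adjusted p 0.0621), without Zfx-cko replicate 2 (0.47, 0.0613), with median centring within cell types (0.0587) or without a variance trend (0.058). Itga9 read 44.2 and 35.4 against 70.1 and 92.1 and rose by 0.81 ± 0.24 (adjusted p 0.0254), a call lost without Zfx-flox replicate 1 (0.93, adjusted p 0.052), Zfx-flox replicate 2 (0.70, 0.123) or Zfx-cko replicate 2 (0.65, 0.147).

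The alpha-v chain and its partner Itgb5 also rose in HSC. Itgav read 742 and 716 in Zfx-flox against 1558 and 1392 in Zfx-cko, a rise of 1.00 ± 0.08 (2.00-fold, adjusted p 2.98e-05). Itgb5 read 159 and 171 against 299 and 261 and rose by 0.71 ± 0.11 (1.63-fold, adjusted p 0.000974), with a second probe set, 1417533_a_at, rising by 1.03 ± 0.13. With the mean over its probe sets the rise of Itgav was 0.60 (adjusted p 0.0427). Itgb7, which pairs with Itga4 to bind the mucosal addressin, read 84.6 and 137 against 232 and 183 and did not pass (0.85 ± 0.43, adjusted p 0.152). The other tested alpha chains, Itga1, Itga2, Itga3, Itga5, Itga8 and Itgae, had changes from -0.31 to 0.48 and did not pass. The 7 tested cadherins lay between -0.25 and 0.26, with Cdh1 at 36.8 and 26.2 in Zfx-flox against 27.8 and 31.9 in Zfx-cko, and Vcam1 changed by 0.02 ± 0.37. The Vcam1 probe sets disagreed: 1448162_at changed by -0.93 ± 0.32 in HSC (adjusted p 0.0503 over probe sets).

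F11r, a tight junction protein that hematopoietic progenitors also carry, had the largest called rise among the members in HSC. It read 67.7 and 57 in Zfx-flox against 199 and 182 in Zfx-cko, a rise of 1.42 ± 0.10 (2.68-fold, adjusted p 1.36e-05). With its dim second probe set averaged in, the rise was 0.60 (adjusted p 0.135). Selplg, the ligand of P-selectin, read 616 and 700.3 against 1243 and 1219, with both Zfx-cko arrays above both controls. Its change of 0.89 ± 0.43 (adjusted p 0.129) missed the threshold in the shared fit, where its ESC Zfx-flox arrays read 13.4 and 49.3, and in a fit of the HSC arrays alone the adjusted p was 0.000328. Selp, P-selectin itself, read 99.5 and 70 against 143 and 143 (0.69 ± 0.35, adjusted p 0.157, and 0.0265 in the HSC arrays alone). Cd44 was bright in every HSC array, at 3322 and 3439 in Zfx-flox against 3784 and 3876 in Zfx-cko, with a change of 0.18 ± 0.10 (adjusted p 0.176). In the HSC arrays alone its adjusted p was 0.0196. Its other tested probe sets had the opposite sign in HSC without passing: 1434376_at at -0.10 ± 0.07 and 1452483_a_at at -0.38 ± 0.23 (adjusted p 0.333 and 0.24 over probe sets). Epcam read 47 and 4.75 in Zfx-flox against 68.6 and 56.8 in Zfx-cko, a change of 1.17 ± 0.43 (adjusted p 0.0571). The change was 2.02 without Zfx-flox replicate 1 but 0.33 without Zfx-flox replicate 2. Its other probe set, 1447899_x_at, changed by 0.07 ± 0.17 (adjusted p 0.802 over probe sets).

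The change without Zfx differed between HSC and ESC for 13 of the 25 members tested in both cell types (52%), where 35.3% of 11175 genes did. The difference was taken as the HSC change minus the ESC change in the same fit, and it was higher for 8 members and lower for 5. The cell types differ in clone or mouse origin, time since deletion and amplification, which cannot be told apart here. Of the members called in both cell types, Itgav rose in both, and Itgb1 and Icam1 moved in opposite directions. Itgb1 had the lowest difference, -1.85 ± 0.13 (adjusted p 3.38e-05). For Icam1 the difference was 1.84 ± 0.11 (adjusted p 2.4e-05), since it fell in ESC and rose in HSC. For Itgav, 0.22 ± 0.11 did not pass (adjusted p 0.175).

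**Figure D4:**
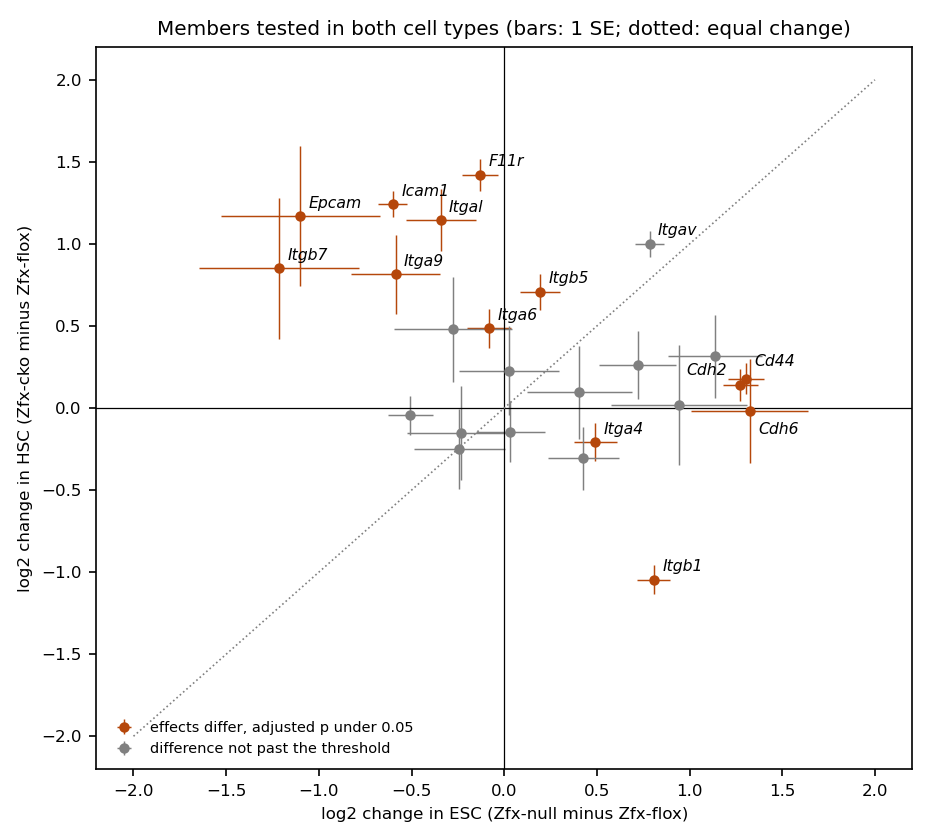
Change in HSC against change in ESC for the 25 members tested in both, on the log2(value + 14.2) scale, with 1 SE as bars and a dotted line of equal change. Orange points are the 13 members whose changes differed (adjusted p under 0.05); Itgb1 lies at 0.81 in ESC and -1.04 in HSC, and Icam1 at -0.60 and 1.24.

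Members that rose in HSC and did not pass in ESC had positive differences: F11r 1.55 ± 0.14 (adjusted p 0.000114), Itgal 1.49 ± 0.27 (0.00338), Itga9 1.40 ± 0.34 (0.0139), Itga6 0.57 ± 0.17 (0.0309) and Itgb5 0.52 ± 0.15 (0.0309). Epcam, at 2.27 ± 0.61 (0.0201), and Itgb7, at 2.07 ± 0.61 (0.0302), differed between the cell types without passing in either. Members that rose in ESC and did not pass in HSC had negative differences: Cdh2 -1.13 ± 0.14 (0.000475), Cd44 -1.12 ± 0.14 (0.000524), Cdh6 -1.35 ± 0.45 (0.0476) and Itga4 -0.70 ± 0.16 (0.0117). For Cdh1, called in ESC, the difference of 0.46 ± 0.17 did not pass (0.07), nor did those of Itga1, -0.82 ± 0.36 (0.111), and Cdh13, -0.46 ± 0.29 (0.261). The calls for Cdh2, Cd44, Itgb1, Icam1, F11r and Itgal held without each array in turn. With the mean over probe sets the F11r difference fell to 0.67 and lost its call (adjusted p 0.25), and that of Itgb1 was -1.26 and kept its call. For Vcam1 the difference of -0.92 ± 0.52 (0.207) became -2.21 (0.00619) with the probe set of highest linear mean, -1.64 (0.0133) with the mean over probe sets and -1.52 (0.0208) without ESC Zfx-flox replicate 1. Leaving out HSC Zfx-cko replicate 1 or replicate 2 left 8 members. Without HSC Zfx-cko replicate 1, Itga4 missed (-0.65, adjusted p 0.0521), and without replicate 2, Itga9 missed (1.23, 0.0537). The calls of Cdh6, Itgb5, Epcam, Itga6 and Itgb7 were each lost without several single arrays. Other omissions made the difference smaller without losing the call. The Epcam difference was 1.43 without HSC Zfx-flox replicate 2. Without ESC Zfx-null replicate 2, that of Itga6 was 0.36 and that of Itgb7 1.31.

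Genes that work with these receptors were described by lists, as counts to be read against all genes tested, of which 15.7% rose and 14.9% fell in ESC and 22.6% rose and 19.8% fell in HSC. Of 26 tested components of integrin adhesions in ESC, 14 rose and 1 fell, with a median change of 0.43. Tgfb1i1 (Hic-5), a paxillin relative at focal adhesions, rose from 259 ± 0.18 to 839.8 ± 2.34 (SD, n = 2), by 1.64 ± 0.17 (adjusted p 0.000277). Parva and Ilk, which bind each other below beta integrin tails, rose by 1.53 ± 0.21 (0.00105) and 1.26 ± 0.13 (0.000308), and Zyx (zyxin), of stress fibres and adhesions, by 0.86 ± 0.08 (0.000161). In HSC, 8 of 23 tested rose and 3 fell. Parvb, another Ilk-binding parvin, fell from 95 ± 3.94 to 29.2 ± 8.02, by 1.34 ± 0.18 (0.000471), while Arhgef7, Actn1 and Zyx rose by 1.21 ± 0.14, 1.07 ± 0.11 and 1.06 ± 0.08.

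Of 23 tested integrin ligands in ESC, 16 rose and 1 fell, with a median change of 0.89. Col1a1, Col1a2 and Col3a1, which rose, are also on the fibroblast and stroma marker list. Lama4, a laminin chain of vessel and mesenchymal matrix, rose by 1.94 ± 0.29 (adjusted p 0.00164), Edil3, an RGD-containing ligand of alpha-v integrins, by 1.76 ± 0.26 (0.00149), and Npnt by 1.42 ± 0.18 (0.000782). Ccn1, another integrin ligand of the matrix, rose from 2276 ± 221 to 5883 ± 173, by 1.37 ± 0.21 (0.0018). Fn1, fibronectin, read 7522 ± 862 in Zfx-flox and 8694 ± 521 in Zfx-null and did not pass (0.21 ± 0.11, 0.191). Lamc1, the laminin gamma-1 chain and the list's called fall, changed by -0.46 ± 0.13 (0.0297); it was named after its value was seen. In HSC, 8 ligands were bright enough to test and 3 rose: Mfge8, which binds alpha-v integrins, by 1.35 ± 0.10 (2.29e-05), Col4a1 by 0.59 ± 0.12 (0.00524) and Fn1 by 0.49 ± 0.11 (0.00743).

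Among the cadherins' cytoplasmic partners and desmosomal genes, 5 of 14 tested rose in ESC and 2 fell, and in HSC 5 of 12 rose and 1 fell; the falls were near or below the shares of all genes, 14.9% and 19.8%, and the rises above 15.7% and 22.6%. Ctnnb1, beta-catenin, did not pass in ESC (6582 ± 383 against 6547 ± 629, -0.01 ± 0.10, adjusted p 0.954) or in HSC (0.11 ± 0.10, 0.416). The p120-type catenins Ctnnd2 and Ctnnd1 rose in ESC, by 1.92 ± 0.21 (0.000349) and 0.94 ± 0.13 (0.00107). The plakophilin Pkp2 rose in ESC by 0.82 ± 0.08 (0.000256) and fell in HSC by 1.32 ± 0.08 (8.87e-06), from 149 ± 9.23 to 51.2 ± 0.925. Its relative Pkp3 fell in ESC by 0.93 ± 0.18 (0.00613) and rose in HSC by 0.71 ± 0.18 (0.0134). Pkp4 and Afdn, which links nectins to actin, rose in HSC by 1.13 ± 0.07 and 0.98 ± 0.11.

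In a list of Cdh1 repressors with other factors and markers tied to epithelial character, 6 of 15 tested rose in ESC. In HSC 4 of 11 rose, and limma called no falls in either cell type. The list also held Grhl2, Ovol1, Ovol2, Esrp1 and Esrp2, which are not Cdh1 repressors. None of these passed, with Esrp1 at -0.60 ± 0.21 in ESC (adjusted p 0.0671). Zeb2, a repressor of Cdh1, rose in ESC from 90.7 ± 17.6 to 379 ± 10.4, by 1.92 ± 0.12 (adjusted p 3.51e-05), and in HSC by 0.82 ± 0.12 (0.000664). Snai2 rose in ESC by 1.56 ± 0.24 (0.00194), Twist1 by 1.15 ± 0.25 (0.00999) and Zeb1 by 0.87 ± 0.12 (0.00112). Others on the list did not pass in ESC: Snai1 (0.32 ± 0.25, adjusted p 0.381), Snai3 (-0.38 ± 0.27, 0.33), Twist2 (0.32 ± 0.49, 0.667), Tcf3 (0.14 ± 0.09, 0.315) and Tcf4 (-0.01 ± 0.06, 0.915). Snai2 and Twist1 were dim in the controls, at 88.8 ± 21 and 43.3 ± 9.37. In HSC, where Cdh1 was near the floor of detection in both groups, Zeb1 rose by 0.68 ± 0.12 (0.00208). Which of these factors acts on any member was not tested.

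Tight junction and nectin genes were near the share of all genes: 3 of 19 tested rose and 3 fell in ESC, and 4 of 15 rose and 2 fell in HSC. Jam2, a relative of F11r, fell in ESC from 1052 ± 112 to 453 ± 8.98, by 1.19 ± 0.17 (adjusted p 0.00147), and Ocln, occludin, by 0.99 ± 0.27 (0.0267). In HSC, Nectin3 rose by 1.89 ± 0.10 (4.84e-06) and Cldn12 by 1.62 ± 0.07 (2.4e-06), and Tjp1, the scaffold ZO-1, fell by 1.21 ± 0.07 (5.15e-06). Of other adhesion receptors, 7 of 25 tested rose in ESC and 3 fell, and 11 of 23 rose in HSC and 4 fell. Alcam, an immunoglobulin-type adhesion receptor, rose in both, by 1.15 ± 0.09 (7.47e-05) in ESC and 1.37 ± 0.09 (9.18e-06) in HSC. The neural receptors Nrcam and Ncam1 rose in ESC by 1.23 ± 0.39 (0.0425) and 1.19 ± 0.21 (0.00342). In HSC, Chl1, a relative of L1, rose from 16.3 ± 5.68 to 182 ± 10.5, by 2.70 ± 0.26 (7.41e-05), and Cd34, the sialomucin of progenitors, by 1.62 ± 0.09 (6.18e-06); Cd34 is also on the stem and progenitor marker list.

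**Figure D5:**
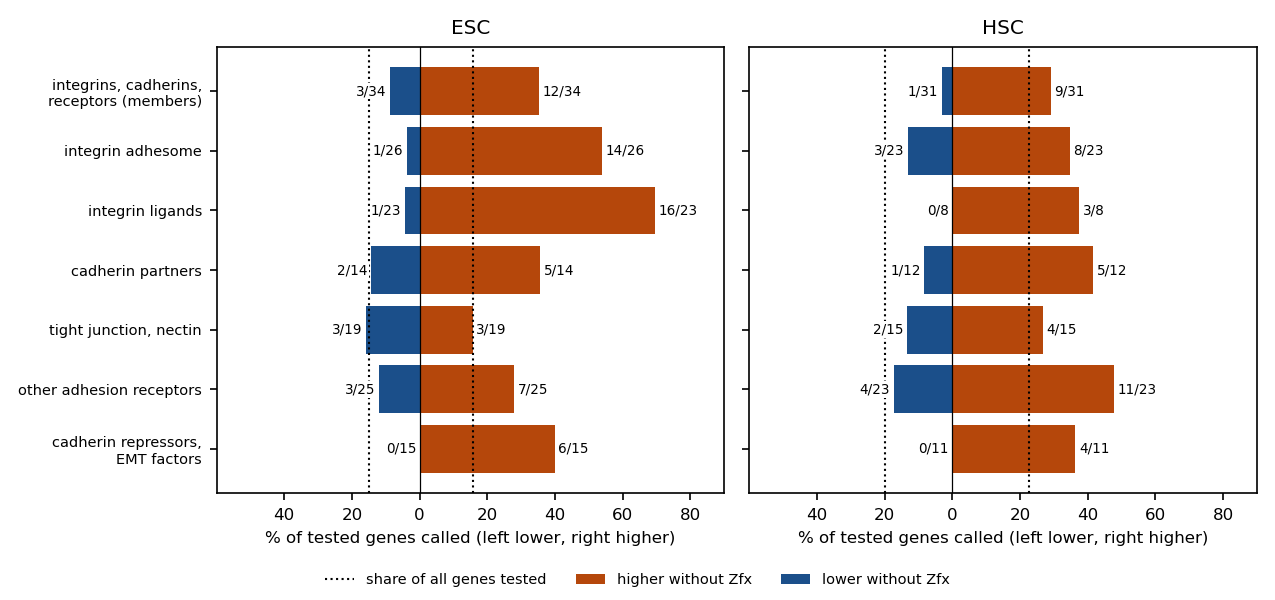
Percent of tested genes called higher (orange, to the right) or lower (blue, to the left) without Zfx, for the members and 6 partner lists in ESC and HSC, with counts beside the bars; dotted lines give the shares of all genes tested, 15.7% and 14.9% in ESC, 22.6% and 19.8% in HSC. The integrin ligands had 16 of 23 higher in ESC.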

How the data were processed

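RNA of 8 samples was measured on Affymetrix arrays. The values are probe set intensities, deposited by the authors on a linear scale and, per the submitters' processing notes, computed in GCOS 1.4; the sources used here give no summarisation settings. Each array's mean was 250 after trimming 2% at each end, so the arrays had been scaled by the authors, and that scaling was kept. Of 45101 probe sets, 64 controls were left out, 34945 had 1 gene symbol in the platform annotation, 932 several and 9160 none, and only the first were named. All 52 members matched RefSeq (GRCm38.p6) by identifier.

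Log2(value + 14.2) was analysed, where 14.2 is the 25th percentile of all values; this understates changes of dim genes. A model of the 4 group means over all 8 arrays was fitted with limma 3.58.1 in R 4.3.3 (trended eBayes, 4 residual degrees of freedom). A gene was tested in a cell type if its mean over that cell type's 4 arrays reached the 40th percentile (a signal of 39.1 in ESC, 25.4 in HSC). Benjamini-Hochberg adjustment ran over all genes tested. The median SE was 0.141 in ESC and 0.139 in HSC. The number of arrays limits the precision. The code was tested on simulated data for the ESC comparison, with 200 of 12676 genes changed, fewer than the 3879 called in the data. It recovered 23% of log2 changes of 0.5 and 58% of log2 changes of 1, with 2 false calls at each size. A member that did not pass is therefore not shown to be unchanged.

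The members, the 6 partner lists and the 11 marker lists were chosen with earlier results of these data known. Values per array were given for members past the threshold or with a group mean of at least 500, and per partner list and comparison at most 4 called genes, those that changed most, and the 2 brightest of the rest were named; exceptions are stated. Alternatives covered the added constant, scaling, filter, probe set choice, variance trend, fits per cell type, the replicate number as a block and each array left out.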

Additional observations from a re-analysis of the deposited data

Results flagged for a closer look

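A difference between the cell types, tested as the change without Zfx in HSC minus that in ESC in the same limma fit, marked 13 members. The positive differences on the log2 scale were Epcam 2.27, Itgb7 2.07, Icam1 1.84, F11r 1.55, Itgal 1.49, Itga9 1.40, Itga6 0.57 and Itgb5 0.52. The negative ones were Itgb1 -1.85, Cdh6 -1.35, Cdh2 -1.13, Cd44 -1.12 and Itga4 -0.70. Epcam and Itgb7 passed in neither cell type alone. For Itgb1 and Icam1 the change passed in both cell types, in opposite directions. Groups of 2 arrays allow no test for outlying samples.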

How the results depend on the processing

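With 2 arrays per group, adjusted p-values near 0.05 moved with single arrays. Of 1787 recomputed values of single members, 1667 kept their side of the threshold (50 of these changed sign while past the threshold in neither setting), 86 lost a call, 32 gained one and 2 reversed. With the mean of all probe sets the change of Itgal in HSC was -0.10 (adjusted p 0.737), and with the probe set of highest linear mean that of Vcam1 in HSC was -0.93 (adjusted p 0.0444), which made 2 members lower in HSC.

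The mean of all probe sets left 6 members called in HSC, 5 of them higher, and 6 whose changes differed between the cell types. A fit of each cell type alone called 16 in HSC, 14 higher and 2 lower. With a filter at the 60th percentile, 7 members were still tested in both cell types, and the changes of 6 differed (43.7% of all genes tested), with no call lost among them; without a variance trend 8 differed. Without a trend, 2424 genes in place of 3879 were called in ESC, and 2329 in place of 3945 between the cell types.

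Leaving out each array in turn gave 11 to 16 members called in ESC (9 to 12 higher, 1 to 4 lower), 7 to 11 in HSC (6 to 10 higher, 1 lower), and 8 to 11 whose changes differed. Median centring moved the median difference between the cell types over all genes from 0.03 to -0.09.

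Same-numbered arrays share only a number: their deviations correlated at 0.262 in ESC and 0.0569 in HSC. With the replicate number as a block, 15 members were called in ESC, 12 in HSC (Epcam, adjusted p 0.0412, and Selplg, 0.0499, were added) and 14 between the cell types (Itga3, 0.0428, was added).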
